A study of Homo sapiens with 9 samples.

Results

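The genes described here are 42 genes of protein folding and quality control in the endoplasmic reticulum (ER), taken by symbol from the 58735 genes of an RNA-seq table of HCT116 cells, an established line of colorectal carcinoma. They cover ER chaperones, co-chaperones of the chaperone BiP with stress-induced cofactors (together called BiP cofactors below), and disulfide and prolyl isomerases. The others are sensors and transcription factors of the unfolded protein response (UPR), the machinery of ER-associated degradation (ERAD) and the translocon. The series held 9 libraries, 3 each of cells labelled WT, A20-KO and A20-OE. A20 is the ubiquitin-editing protein encoded by TNFAIP3. The A20-KO cells were made with a guide RNA in the LentiCRISPR v2 vector, and the A20-OE cells are described as A20-KO cells to which A20 was returned. By that description both groups share the editing step, which these mRNA levels do not verify. The methods describe lentiviral delivery with puromycin selection and a CMV-driven, Flag-tagged A20 vector, and do not say whether a line is a single clone or whether the replicates are separate cultures. The p-values therefore measure the spread between these libraries, which may be technical.

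The unfolded protein response starts when unfolded proteins draw BiP, the product of HSPA5, away from 3 sensors in the ER membrane. IRE1, encoded by ERN1, splices XBP1 mRNA into the template of an active transcription factor. ATF6 moves to the Golgi, where the site-1 and site-2 proteases encoded by MBTPS1 and MBTPS2 release its active part. Both factors raise transcription of chaperones, BiP cofactors, disulfide isomerases and ERAD genes, and the response is large in secretory cells and in many tumors. The third sensor, PERK, encoded by EIF2AK3, acts mainly through translation and is counted below among other ER genes.

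Known response elements in the promoters of the members are shown first, since several of the genes that differed between groups carry one. The search used RefSeq windows of the GRCh38.p14 build from 250 bases before to 50 after each listed start. By symbol 38 of the 42 members matched, with 51 windows. A gene can have several listed starts, and some, as in CRELD2, lie inside the gene coordinates given below. DERL1, DERL3, FKBP14 and PDIA3 had no entry. The ER stress response element was taken as CCAAT and CCACG separated by 9 bases, on either strand. It was present in the windows of 6 of the 38 members and of 0.0916% of the 27305 genes with a window. The shorter element II, ATTGGNCCACG, was present in 3 of the 38 and in 0.0696% of all genes. The UPR element, TGACGTGG, was present in DNAJC10, HYOU1 and TXNDC5, and in 0.927% of all genes. In HYOU1, 1 of the 2 copies of element II shared 5 bases with the UPR element, and no other matches in members overlapped. The matches to both ER stress response elements are shown 5′ to 3′ with up to 5 flanking bases, and capitals mark the letters of the element.

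HSPA5: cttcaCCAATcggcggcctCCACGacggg (chr9:125241386-125241414, minus strand)
HSP90B1, first copy: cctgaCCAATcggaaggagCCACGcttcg (chr12:103930211-103930239, plus strand)
HSP90B1, second copy: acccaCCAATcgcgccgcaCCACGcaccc (chr12:103930316-103930344, minus strand)
CANX: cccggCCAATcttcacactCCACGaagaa (chr5:179698773-179698801, plus strand)
PDIA6: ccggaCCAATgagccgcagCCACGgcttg (chr2:10812848-10812876, minus strand)
XBP1: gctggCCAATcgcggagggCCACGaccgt (chr22:28800598-28800626, minus strand)
CRELD2: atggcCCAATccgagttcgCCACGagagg (chr22:49918549-49918577, minus strand)
HERPUD1: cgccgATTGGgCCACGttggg (chr16:56932020-56932040, plus strand)
SDF2L1: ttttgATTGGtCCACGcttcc (chr22:21642109-21642129, minus strand)
HYOU1, first copy: tactcATTGGaCCACGtccca (chr11:119057269-119057289, plus strand)
HYOU1, second copy: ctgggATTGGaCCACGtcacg (chr11:119057375-119057395, plus strand)

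Among these 9 genes are the chaperones HSPA5, HSP90B1 and CANX, which did not pass between A20-KO and A20-OE, and the cofactors SDF2L1 and CRELD2, which did. A match is a description of the sequence, and a missing match says only that these letters are not in the window.

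TNFAIP3 mRNA was read in every library as a check of the labels. It stood at 0.869, 0.800 and 0.736 FPKM in WT replicates 1, 2 and 3, at 58.7, 66.5 and 56.5 in A20-OE, and at 1.93, 2.16 and 1.04 in the 3 libraries that carry the label A20-KO. The deposited unit, FPKM, divides the fragments of a gene by its length and by the library's mapped total. The mRNA was higher in A20-OE, as its label says, at a log2 fold change of 5.13 ± 0.23 (SE) over A20-KO (limma with Benjamini-Hochberg adjustment, adjusted p = 2.1e-05). The libraries labelled A20-KO held more TNFAIP3 mRNA than WT (log2 fold change 0.95 ± 0.23, adjusted p = 0.018), and 4 alternatives ended that call. Gene-level FPKM counts all exons, so this level does not show whether the edited transcript was functional. The label is used below as a name, and every direction given for it is that of the libraries so labelled.

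The recovered depth was 23406222 to 24963691 reads per library, and the ER members took 0.674% to 0.782% of it. Mitochondrial transcripts took 7.52% to 10.1% of the reads in WT, 9.18% to 11.9% in A20-KO and 12.0% to 13.9% in A20-OE. The epithelial markers EPCAM, CDH1, KRT8, KRT18 and KRT19 were present in every library. All 4 leukocyte, all 3 endothelial and all 4 secretory intestinal markers stayed under 1 FPKM in every library, as did 2 of 3 fibroblast markers. The exception, COL1A1, was at 4.55 to 5.80 FPKM in WT, 12.4 to 14.9 in A20-KO and 11.0 to 12.2 in A20-OE, while DCN did not exceed 0.0133 FPKM. The WT libraries differed among themselves in GC content: over 7212 genes the deviation from the WT mean had a Spearman rho with GC content of -0.80, 0.39 and 0.82 in replicates 1, 2 and 3, against -0.50 to 0.48 in the other groups. Deviations from a mean of 3 libraries sum to 0, so these values do not single out 1 library. Across the same genes the change from WT to A20-KO had a rho of 0.46 with GC content, and that from A20-KO to A20-OE one of -0.36. The first was 0.26 without WT replicate 1, 0.48 without replicate 2 and 0.57 without replicate 3. The part of this trend in any single result was not tested beyond a correction for GC content and a fit without WT replicate 1, and the calls these change are given with their values.

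The levels of the 42 genes spread over a wide range. HSPA5 was the highest, at a mean of 234 FPKM over the 9 libraries, followed by P4HB and HSP90B1 at 203 each, PDIA4 at 124 and CANX at 117. P4HB is the main protein disulfide isomerase, HSP90B1 encodes the chaperone GRP94 and CANX encodes calnexin, a lectin that holds glycoproteins for folding. HSPA5, HSP90B1, CANX and P4HB together supplied 50.9% of the reads of all members. At the low end, MBTPS2 had a mean of 2.87 FPKM, ERN1 2.28 and TXNDC5 1.80. DERL3, an ERAD channel protein of secretory cells, had 0 to 4 reads per library. It was the only member under the filter of a mean of 0.1 FPKM, which left 41 to test. As 77.0% of its exonic bases are shared with SMARCB1 on the opposite strand, even those reads are uncertain.

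The members' share of reads from nuclear genes was 0.789% to 0.856% in WT, 0.843% to 0.860% in A20-KO and 0.768% to 0.804% in A20-OE. Without the 4 most abundant genes it was 0.402% to 0.409% in WT, 0.435% to 0.445% in A20-KO and 0.358% to 0.361% in A20-OE. The 3 groups of libraries did not overlap on that second share, which is a description of the summed reads. The gene by gene comparisons below show where the difference lies.

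In A20-KO against WT the question was which of these genes differ in the cells labelled A20-KO. MANF, OS9, EDEM1, XBP1 and PDIA4 were higher in the libraries labelled A20-KO, and SEC61A1 was lower. That is 5 of 41 members higher (12.2%), beside 11.3% of all 21636 genes tested, and 1 lower (2.44%), beside 11% of all genes. No member passed 2-fold as well, beside 6.99% of all genes; at an unadjusted p under 0.05 and the same fold the number was also 0 with limma, and it was 1 with limma-voom. The share higher was near the background, and the median log2 fold change was 0.10 over the members and -0.01 over all genes. Among genes with a mean of at least 1 FPKM, 6 members were higher (14.6%, beside 17% of all) and 2 lower (4.88%, beside 19.1%).

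MANF, an ER-resident survival factor induced by ER stress, showed the largest change of the members that passed (chr3:51385047-51389397, plus strand). It stood at 13.4, 19.2 and 21.1 FPKM in WT replicates 1, 2 and 3, at 32.4, 30.5 and 39.0 in A20-KO and at 21.8, 16.8 and 22.1 in A20-OE. Every A20-KO library was above every other library. The log2 fold change over WT was 0.94 ± 0.19 (SE, adjusted p = 0.0074), and MANF passed with each of the 9 libraries left out in turn.

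OS9 and EDEM1 act early in ERAD: both act on misfolded glycoproteins, and OS9 is a lectin. OS9 (chr12:57693955-57721557, plus strand) was at 15.5, 17.6 and 20.8 FPKM in WT, 26.1, 24.3 and 28.9 in A20-KO and 25.4, 23.3 and 27.3 in A20-OE. The WT libraries were the low ones, and the other 6 overlapped. Its log2 fold change over WT was 0.56 ± 0.12 in A20-KO (adjusted p = 0.013). EDEM1 (chr3:5187646-5219957, plus strand) was at 5.27, 5.21 and 4.97 FPKM in WT, 7.57, 7.95 and 6.41 in A20-KO and 4.91, 5.03 and 4.21 in A20-OE. Here the A20-KO libraries were the high ones and WT and A20-OE overlapped, with a log2 fold change of 0.49 ± 0.11 in A20-KO over WT (adjusted p = 0.016).

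XBP1 (chr22:28794555-28800597, minus strand) was at 22.9, 19.0 and 21.4 FPKM in WT, 27.7, 26.3 and 25.9 in A20-KO and 19.2, 19.6 and 19.5 in A20-OE. All A20-KO libraries lay above all others, at a log2 fold change of 0.34 ± 0.09 over WT (adjusted p = 0.024). Gene-level FPKM does not separate spliced from unspliced XBP1. PDIA4, a disulfide isomerase (chr7:149003062-149028641, minus strand), was at 107, 111 and 128 FPKM in WT, 149, 140 and 146 in A20-KO and 110, 105 and 119 in A20-OE. The A20-KO libraries were again above all others, at a log2 fold change of 0.34 ± 0.10 over WT (adjusted p = 0.044). This call was lost after the GC content correction (log2 fold change 0.23, adjusted p = 0.063) and without WT replicate 1 (0.29, adjusted p = 0.080). With each of the 9 libraries left out in turn, PDIA4 passed in 1 fit, XBP1 in 6 and EDEM1 in 7. Neither PDIA4 nor XBP1 passed in the fit limited to the 2 groups compared.

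SEC61A1, the channel-forming subunit of the translocon (chr3:128051641-128071683, plus strand), was the member that fell. Its values were 72.5, 78.9 and 95.3 FPKM in WT, 59.7, 57.1 and 61.6 in A20-KO and 46.0, 47.2 and 49.3 in A20-OE, with no overlap between any pair of groups. The log2 fold change in A20-KO over WT was -0.46 ± 0.11 (adjusted p = 0.017). SEC61A1 passed in 7 of the 9 leave-outs and not in the fit limited to the 2 groups compared. Its partner SEC61B came to a log2 fold change of 0.26 ± 0.13 (adjusted p = 0.19).

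**Figure D1:**
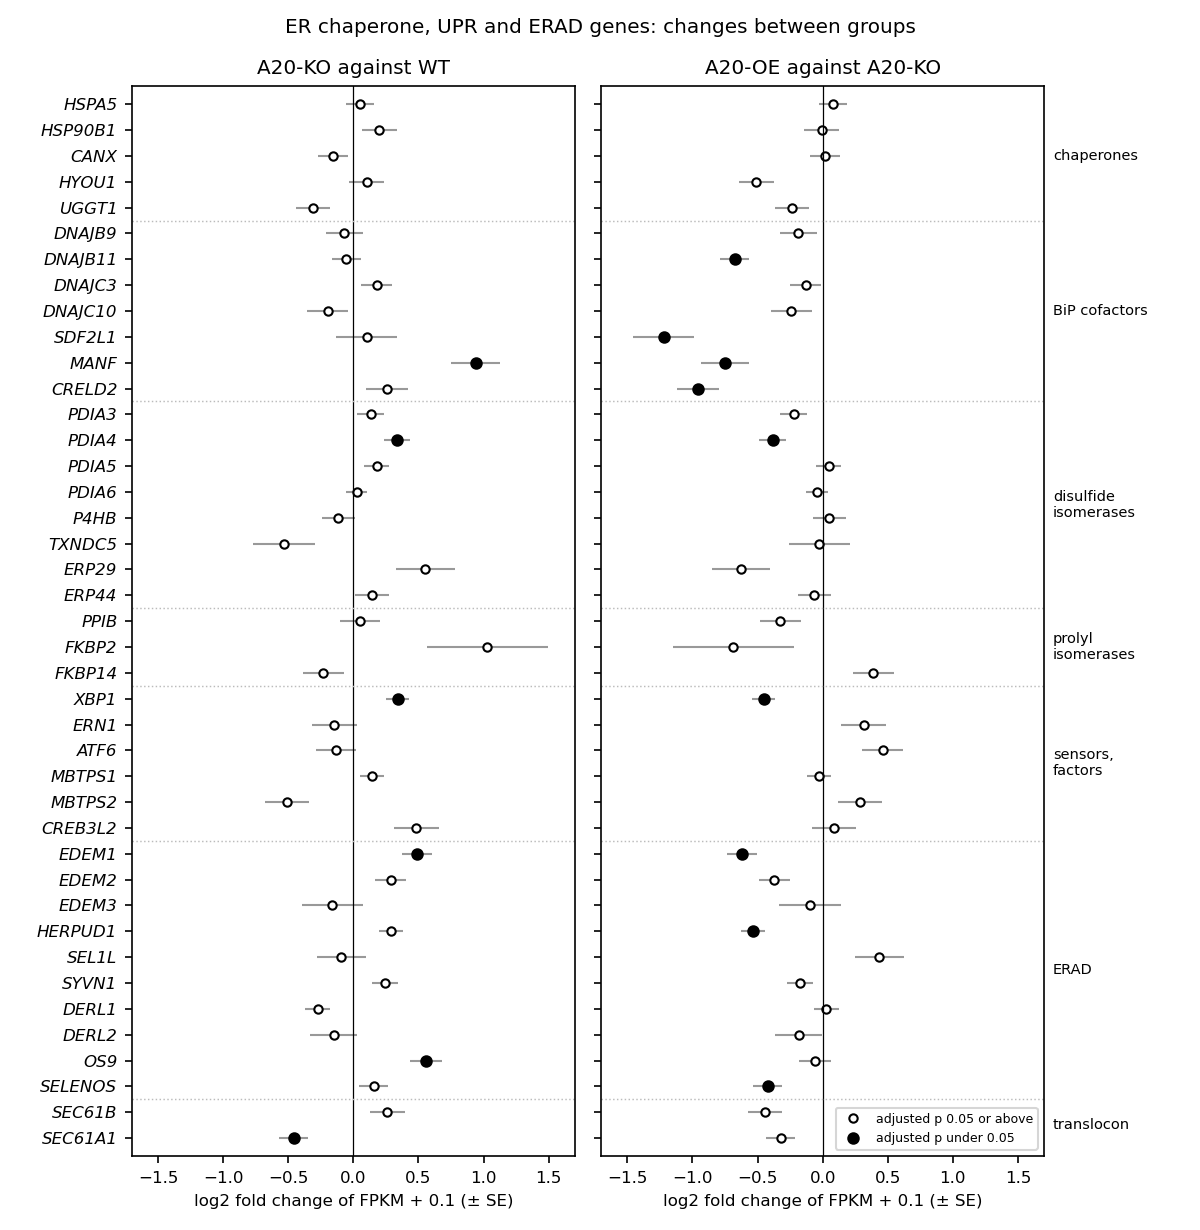
Log2 fold change of FPKM + 0.1 for the 41 members tested, grouped by role, in A20-KO against WT (left) and A20-OE against A20-KO (right). Points are estimates with bars of 1 SE, and filled points had an adjusted p under 0.05. On the left 5 filled points lie above 0 and 1 below, and on the right all 9 filled points lie below 0, 4 of them among the BiP cofactors.

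The GC content correction changed the list in A20-KO against WT. With it 9 members were higher (22.0%, beside 12.6% of all genes), adding HERPUD1, CREB3L2, ERP44, DNAJC3 and HSP90B1 to MANF, OS9, EDEM1 and XBP1. The 3 lower (7.32%, beside 13.6% of all genes) were SEC61A1, P4HB and SDF2L1. HSP90B1, at 0.20 ± 0.13 uncorrected (adjusted p = 0.32), came to 0.46 (adjusted p = 0.020) and passed without WT replicate 1 as well (0.33, adjusted p = 0.049), and P4HB, at -0.11 ± 0.12 (adjusted p = 0.56), came to -0.39 (adjusted p = 0.028). SDF2L1 turned from 0.10 ± 0.23 (adjusted p = 0.80) to -0.36 (adjusted p = 0.027). ERP44, which returns escaped ER proteins from the Golgi, came to 0.41 (adjusted p = 0.012) and passed without WT replicate 1 too (0.29, adjusted p = 0.038), and DNAJC3 came to 0.39 (adjusted p = 0.0030). Without WT replicate 1 the numbers were 7 higher (17.1%, beside 9.95% of all genes) and 2 lower (4.88%, beside 9.98%), the second lower one being TXNDC5, at -0.79 (adjusted p = 0.023) against -0.53 with all libraries. Leaving out WT replicate 2 left 3 higher (7.32%, beside 8.17% of all genes), and leaving out A20-KO replicate 1 or 2 left 2 (4.88%, beside 7.33% and 9.12%), with MANF and OS9 higher in every one of the 9 leave-outs.

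FKBP2, an ER prolyl isomerase, has a value that moves with WT replicate 1, and it was chosen for mention after its values were seen. Its FPKM was 7.87 in WT replicate 1 against 27.4 and 33.6 in replicates 2 and 3, with 37.9, 30.6 and 53.6 in A20-KO. Its log2 fold change of 1.03 ± 0.47 did not pass (adjusted p = 0.15) and was 0.38 without WT replicate 1. ERP29, an ER-resident folding factor, followed the same layout, with 24.6 FPKM in WT replicate 1 against 41.9 and 49.2, and its log2 fold change of 0.55 ± 0.23 (adjusted p = 0.11) was 0.26 without that library.

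The second comparison is A20-OE against A20-KO, described as A20 returned to the A20-KO cells. It shares the A20-KO libraries with the first, so a high A20-KO value enters both with opposite sign. SDF2L1, CRELD2, MANF, DNAJB11, EDEM1, HERPUD1, XBP1, SELENOS and PDIA4 were lower in A20-OE, 9 of 41 members (22.0%), beside 4.54% of all genes tested. Among genes with a mean of at least 1 FPKM, 10 members were lower (24.4%), beside 8.78% of all. No member was higher with limma, beside 4.43% of all genes, and limma-voom also gave 0; at an unadjusted p under 0.05 the number higher was 3. SDF2L1 alone passed 2-fold, beside 2.39% of all genes. The median log2 fold change was -0.19 over the members and 0.01 over all genes. The group of 7 BiP cofactors also holds stress-induced genes such as CRELD2, while HYOU1, which acts on BiP, was placed with the chaperones. In that group of 7 the 4 members that passed were all lower, and all 7 had negative estimates, with a median of -0.68.

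The BiP cofactors held the largest changes. SDF2L1, which keeps BiP clients from aggregating (chr22:21642261-21644298, plus strand), stood at 47.1, 71.4 and 85.3 FPKM in WT, at 72.2, 56.6 and 86.9 in A20-KO and at 30.7, 25.8 and 35.3 in A20-OE. The A20-OE libraries were below all others and WT and A20-KO overlapped, with a log2 fold change against A20-KO of -1.22 ± 0.23 (adjusted p = 0.017). After the GC content correction it was -0.95 (adjusted p = 0.00069), so the gene no longer passed 2-fold.

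CRELD2, an ER stress-induced protein with thiol isomerase activity (chr22:49918167-49927540, plus strand), stood at 7.73, 9.47 and 11.0 FPKM in WT, at 11.8, 9.14 and 12.7 in A20-KO and at 5.69, 5.20 and 6.19 in A20-OE. Again the A20-OE libraries were below all others. The log2 fold change against A20-KO was -0.96 ± 0.16 (adjusted p = 0.011). DNAJB11, a BiP co-chaperone that delivers unfolded clients (chr3:186567403-186585800, plus strand), stood at 11.9, 10.7 and 10.1 FPKM in WT, at 10.7, 9.59 and 11.2 in A20-KO and at 6.37, 5.95 and 7.31 in A20-OE. The same order held for it, with a log2 fold change against A20-KO of -0.68 ± 0.11 (adjusted p = 0.010). MANF, whose values are given above, came to -0.75 ± 0.19 on the log2 scale (adjusted p = 0.041), and its A20-OE libraries overlapped with WT.

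The other 3 BiP cofactors, DNAJB9, DNAJC3 and DNAJC10, had log2 fold changes of -0.13 to -0.24 and did not pass. DNAJC3 and DNAJC10 passed after the GC content correction, at -0.25 (adjusted p = 0.037) and -0.36 (adjusted p = 0.017).

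Among the ERAD genes, EDEM1, HERPUD1 and SELENOS fell. HERPUD1, a scaffold of the ERAD ubiquitin ligase complex (chr16:56932048-56944863, plus strand), was at 11.8, 10.3 and 11.5 FPKM in WT, 13.5, 13.2 and 14.3 in A20-KO and 9.11, 9.15 and 10.004 in A20-OE. The 3 groups did not overlap, and A20-KO was the highest. Its log2 fold change was -0.53 ± 0.09 in A20-OE against A20-KO (adjusted p = 0.011), and 0.29 ± 0.09 in A20-KO against WT (adjusted p = 0.0501), which passed with the GC content correction (0.41, adjusted p = 0.0070) and without WT replicate 1 (0.33, adjusted p = 0.032). SELENOS, a selenoprotein that links the ATPase VCP to the ER membrane (chr15:101270817-101277500, minus strand), was at 9.56, 9.84 and 10.6 FPKM in WT, 10.8, 10.4 and 12.3 in A20-KO and 8.02, 7.54 and 9.36 in A20-OE. Its A20-OE libraries were the lowest 3, at a log2 fold change of -0.42 ± 0.11 against A20-KO (adjusted p = 0.047).

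EDEM1 came to a log2 fold change of -0.62 ± 0.12 in A20-OE against A20-KO (adjusted p = 0.015), XBP1 one of -0.45 ± 0.09 (adjusted p = 0.018) and PDIA4 one of -0.38 ± 0.10 (adjusted p = 0.0497). In all 3 the A20-KO libraries were above both other groups, as the values above show. The remaining ERAD members, EDEM2, EDEM3, SEL1L, SYVN1, DERL1, DERL2 and OS9, did not pass. Their log2 fold changes lay between -0.37 for EDEM2 and 0.43 for SEL1L, the adaptor of the HRD1 ligase that SYVN1 encodes.

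**Figure D2:**
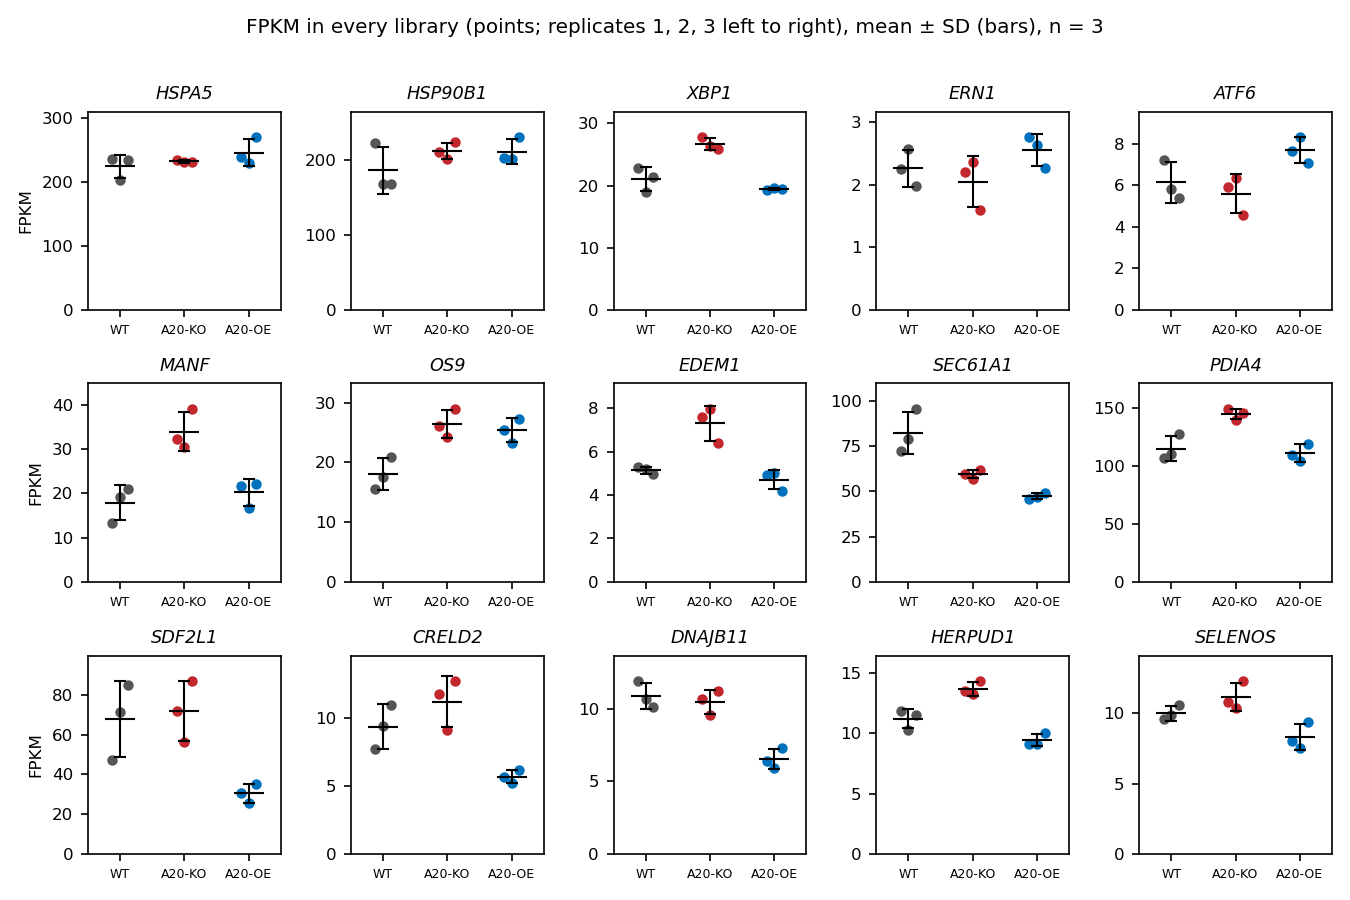
FPKM in each of the 9 libraries for the 15 members given library by library, with points in replicate order and bars for the mean ± SD (n = 3 per group); each axis starts at 0. The A20-OE points lie below all others for SDF2L1, CRELD2, DNAJB11, HERPUD1, SELENOS and SEC61A1, and the 3 groups overlap for HSPA5 and HSP90B1.

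Of the 5 chaperones among the members none passed in A20-OE against A20-KO. CALR, an ER chaperone outside the members with a mean of 339 FPKM in WT, 286 in A20-KO and 201 in A20-OE, was lower there and is described with the other ER genes. HSPA5, encoding BiP (chr9:125234853-125241330, minus strand), was at 235, 203 and 234 FPKM in WT, 235, 230 and 231 in A20-KO and 238, 229 and 270 in A20-OE. The groups overlapped, and its log2 fold change was 0.05 ± 0.11 in A20-KO against WT (adjusted p = 0.78) and 0.08 ± 0.11 in A20-OE against A20-KO (adjusted p = 0.70). HSP90B1 (chr12:103930107-103953645, plus strand) was at 222, 167 and 168 FPKM in WT, 210, 202 and 224 in A20-KO and 202, 201 and 230 in A20-OE. WT replicate 1 was at the level of the other groups and above the other 2 WT libraries. In A20-OE against A20-KO its log2 fold change was -0.01 ± 0.13 (adjusted p = 0.99).

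CANX, with a log2 fold change of 0.02 ± 0.12 in A20-OE against A20-KO, and P4HB, with 0.05 ± 0.12, were likewise not past the test. HYOU1, the large chaperone that exchanges nucleotide on BiP, was at 27.5, 37.5 and 40.2 FPKM in WT, 37.9, 39.1 and 34.6 in A20-KO and 25.9, 25.9 and 26.4 in A20-OE. Its log2 fold change against A20-KO was -0.51 ± 0.14 (adjusted p = 0.0502), and it passed after the GC content correction (-0.42, adjusted p = 0.028) and without WT replicate 1 (-0.51, adjusted p = 0.0049). UGGT1, which re-glucosylates unfinished glycoproteins, came to -0.23 ± 0.13 (adjusted p = 0.31). A p that misses the threshold does not show that levels were the same.

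The sensors ATF6 and ERN1 had positive estimates that did not pass, and EIF2AK3, the gene of the third sensor, came to -0.08 ± 0.15 (adjusted p = 0.78). ATF6 (chr1:161766294-161964070, plus strand) was at 7.23, 5.80 and 5.38 FPKM in WT, 5.90, 6.35 and 4.56 in A20-KO and 7.68, 8.31 and 7.08 in A20-OE. The A20-OE libraries were above the A20-KO ones, at a log2 fold change of 0.46 ± 0.15 (adjusted p = 0.10). After the GC content correction it was 0.37 and passed (adjusted p = 0.026). ERN1 (chr17:64039142-64130819, minus strand) was at 2.25, 2.56 and 1.97 FPKM in WT, 2.19, 2.36 and 1.59 in A20-KO and 2.75, 2.62 and 2.27 in A20-OE. All groups overlapped on ERN1, and its log2 fold change of 0.32 ± 0.17 against A20-KO did not pass (adjusted p = 0.29). The proteases MBTPS1 and MBTPS2 and the ATF6-related factor CREB3L2 had log2 fold changes of -0.03 to 0.29 and did not pass.

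The genes listed with the disulfide isomerases, other than PDIA4, did not pass in A20-OE against A20-KO. Their log2 fold changes ran from -0.63 for the folding factor ERP29 (adjusted p = 0.12) to 0.05 for P4HB. After ERP29 the lowest was -0.22 for PDIA3. ERP29 passed at the same log2 fold change without WT replicate 1 (adjusted p = 0.013) and in the fit limited to the 2 groups compared. TXNDC5 shares 60.6% of its exonic bases with the readthrough gene BLOC1S5-TXNDC5 on the same strand, and its level is uncertain for that reason. The 3 prolyl isomerases PPIB, FKBP2 and FKBP14 came to -0.33, -0.69 and 0.39, none past the test. SEC61A1, at -0.32 ± 0.11 (adjusted p = 0.10), passed after the GC content correction (-0.30, adjusted p = 0.028) and without WT replicate 1 (adjusted p = 0.041), and SEC61B passed after the correction (-0.51, adjusted p = 0.034).

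With the GC content correction 14 members were lower in A20-OE than in A20-KO (34.1%, beside 8.52% of all genes), and all 9 given above were among them. The same 9 also passed without WT replicate 1 and with limma-voom on the recovered reads. The number changed with each library left out, those of WT included, which enter through the shared estimate of the spread. It was 12 (beside 8.28% of all genes) without WT replicate 1, 6 (2.55%) without WT replicate 2 and 10 (4.81%) without WT replicate 3. With A20-KO replicate 1, 2 or 3 left out it was 2 (1.13%), 6 (2.63%) and 5 (1.95%). With A20-OE replicate 1, 2 or 3 left out it was 0 (0.961%), 2 (1.09%) and 6 (2.23%). Without A20-OE replicate 1, 13 members were lower at an unadjusted p under 0.05. The share of all genes at that unadjusted threshold is not given for this fit, so the 13 have no background beside them. All 9 genes kept their direction in each of the 9 leave-outs. DNAJB11 passed in 8 of them, EDEM1 and HERPUD1 in 7, CRELD2 in 6, SDF2L1 and XBP1 in 5, and MANF, SELENOS and PDIA4 in 2.

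**Figure D3:**
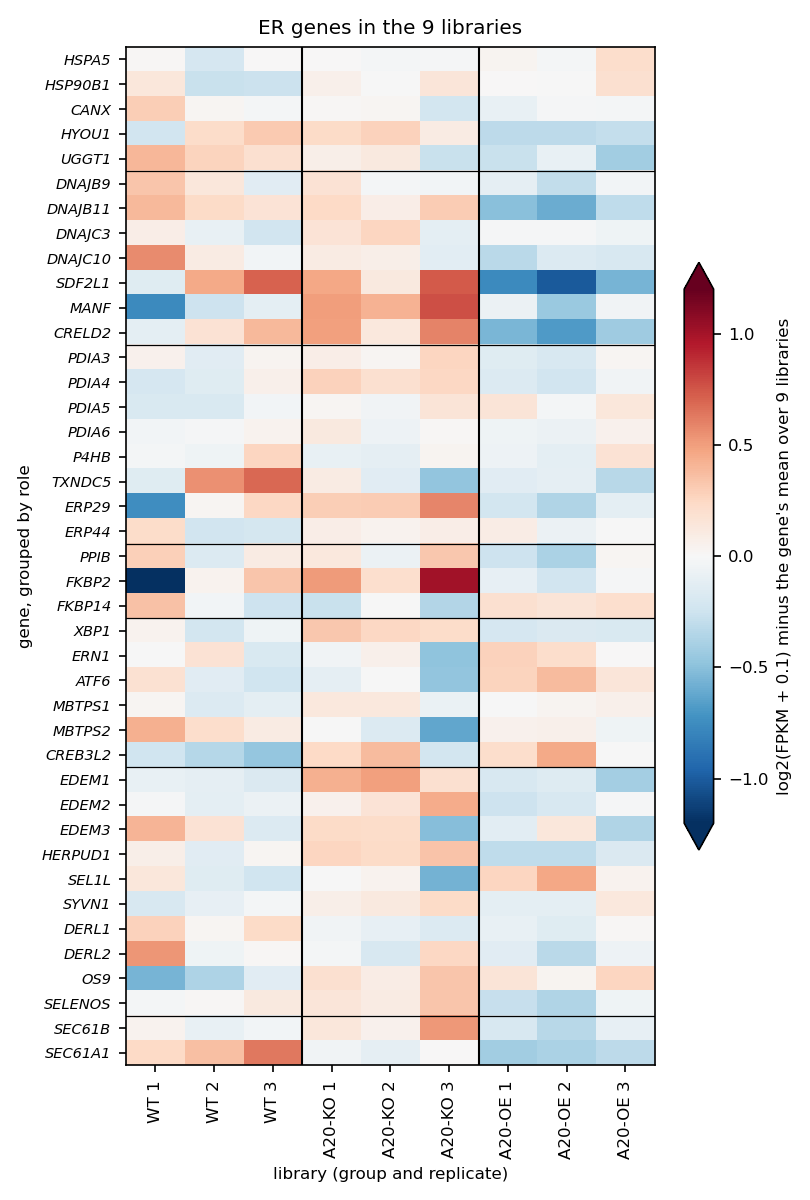
Log2(FPKM + 0.1) of the 41 members tested in the 9 libraries, with the mean of each gene over the libraries subtracted, and genes ordered by role (lines separate roles and groups). Red is above and blue below the mean of the gene, and colors saturate at 1.2. SDF2L1, CRELD2 and DNAJB11 are blue in all A20-OE libraries, HSPA5 and PDIA6 stay pale throughout, and FKBP2, ERP29 and MANF are darkest blue in WT replicate 1.

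Of the 9 members with an ER stress response element or element II, SDF2L1, CRELD2, HERPUD1 and XBP1 were lower in A20-OE than in A20-KO, with a median log2 fold change of -0.45 over the 9. Of the 29 members whose windows held neither, 5 were lower, with a median of -0.19. Of all genes tested, 4.54% were lower. After the GC content correction the medians were closer, at -0.42 over the 9 and -0.30 over the 29. HSPA5, HSP90B1, CANX and PDIA6 carry the same element shown above for XBP1 and CRELD2, and their log2 fold changes lay between -0.04 and 0.08. In A20-KO against WT 1 of the 9 was higher and 0 lower, with a median of 0.10. Of the 29, 4 were higher and 1, SEC61A1, was lower, with a median of 0.14. Of all genes tested, 11.3% were higher and 11% lower. These counts are descriptions, and no test of the element was made.

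A20-OE against WT sets cells with a mean of 60.6 FPKM of TNFAIP3 mRNA beside cells with 0.802. It shares libraries with each of the other comparisons. SDF2L1, SEC61A1, DNAJB11, CRELD2, UGGT1 and HYOU1 were lower, 6 of 41 members (14.6%), beside 15.4% of all genes, and OS9 and CREB3L2 were higher, 2 of 41 (4.88%), beside 15.7% of all genes. Past 2-fold was SDF2L1 alone, beside 11.9% of all genes. The share lower was near the background of all genes tested and the share higher was under it. Among genes with a mean of at least 1 FPKM, 17.1% of members were lower, beside 25.1% of all, and 4.88% higher, beside 20.4%. Both shares were then under the background. The median log2 fold change was -0.09 over the members and 0.03 over all genes.

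SDF2L1 came to -1.12 ± 0.23 (adjusted p = 0.0064), DNAJB11 to -0.73 ± 0.11 (adjusted p = 0.0013) and CRELD2 to -0.70 ± 0.16 (adjusted p = 0.010) on the log2 scale. SEC61A1, at -0.78 ± 0.11 (adjusted p = 0.00080), had its change spread over both steps, from WT to A20-KO and on to A20-OE. These 4 passed in each of the 9 leave-outs. UGGT1 was at 13.1, 11.9 and 11.4 FPKM in WT and at 8.23, 9.33 and 7.39 in A20-OE, a log2 fold change of -0.55 ± 0.13 (adjusted p = 0.013). HYOU1, at -0.41 ± 0.14 (adjusted p = 0.048), passed in 1 of the 9 leave-outs.

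OS9 stayed high in A20-OE, at 0.50 ± 0.12 over WT (adjusted p = 0.014), at -0.06 ± 0.12 between A20-OE and A20-KO (adjusted p = 0.81). CREB3L2 was at 6.99, 6.498 and 5.97 FPKM in WT, 9.79, 10.8 and 7.09 in A20-KO and 9.59, 11.4 and 8.25 in A20-OE. Its log2 fold change in A20-OE over WT was 0.57 ± 0.17 (adjusted p = 0.033). In A20-KO over WT it was 0.48 ± 0.17 (adjusted p = 0.076), which passed with the GC content correction (0.60, adjusted p = 0.020). XBP1, EDEM1, PDIA4 and MANF, all high in A20-KO, came to -0.11, -0.13, -0.05 and 0.19 in A20-OE against WT and did not pass. With the GC content correction 6 members were higher than WT (14.6%, beside 18.0% of all genes), adding ATF6 at 0.47 (adjusted p = 0.0032), SEL1L at 0.42 (adjusted p = 0.018), HSP90B1 at 0.35 (adjusted p = 0.041) and FKBP14 at 0.27 (adjusted p = 0.044). DNAJC10 was lower with the correction (-0.28, adjusted p = 0.021). Without WT replicate 1 HSP90B1 was higher (0.33, adjusted p = 0.037) and TXNDC5 lower (-0.81, adjusted p = 0.014).

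Another 87 ER genes, listed by function, were read beside the members, and all passed the filter. In A20-OE against A20-KO 6 were lower (6.90%) and 4 higher (4.60%), beside 4.54% and 4.43% of all genes. In A20-KO against WT 6 were higher (6.90%, beside 11.3% of all genes) and 10 lower (11.5%, beside 11%), and in A20-OE against WT 10 were higher (11.5%, beside 15.7%) and 20 lower (23.0%, beside 15.4%).

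Among the 8 other chaperones and BiP cofactors, 2 were lower in A20-OE than in A20-KO. CALR, the soluble lectin chaperone calreticulin, came to -0.51 ± 0.12 on the log2 scale (adjusted p = 0.034), and MESD, a chaperone of lipoprotein receptors, passed as well. The largest estimate was that of CLGN, the calnexin relative calmegin, at -0.82 ± 0.24 (adjusted p = 0.065). CLGN was lower in A20-KO than in WT (-1.05 ± 0.24, adjusted p = 0.014) and lower in A20-OE than in WT (-1.87), as was MESD (-0.77), while SIL1, a nucleotide exchange factor of BiP, was higher in A20-KO (0.76 ± 0.19, adjusted p = 0.023). CALR was also lower in A20-OE than in WT (-0.75 ± 0.12, adjusted p = 0.0015). In A20-KO against WT CALR came to -0.24 ± 0.12 (adjusted p = 0.18), and passed after the GC content correction (-0.34, adjusted p = 0.021).

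Of the 12 oxidative folding genes, 3 were higher in A20-OE than in A20-KO. The largest were ERO1A, the oxidase that recharges disulfide isomerases, at 0.66 ± 0.16 (adjusted p = 0.034), and QSOX1, a sulfhydryl oxidase, at 0.65 ± 0.15 (adjusted p = 0.034). In A20-KO against WT 4 of the 12 were lower and 1 higher. The one higher was ERO1B, a relative of ERO1A, at 0.65 (adjusted p = 0.026), and the largest estimate, that of PDIA2 at 1.05 ± 0.43, did not pass (adjusted p = 0.11). In A20-OE against WT PDIA2 (1.43) and QSOX1 (1.09) were higher, and the mean of PDIA2 did not exceed 0.222 FPKM in any group.

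Of the 10 other sensors and factors, ATF6B, the paralog of ATF6, was the 1 lower in A20-OE than in A20-KO, at -0.62 ± 0.09 (adjusted p = 0.0075), and CREB3L4 came to -0.56 ± 0.19 (adjusted p = 0.10). In A20-KO against WT CREB3L4 was higher and TRIB3, a pseudokinase induced downstream of PERK and ATF4, was lower. In A20-OE against WT ERN2 (0.96) was higher and TRIB3 (-0.82) lower. The largest estimates in A20-KO against WT, CREB3L1 at 1.01 and ERN2 at 0.76, did not pass, and neither gene exceeded a mean of 1 FPKM in any group.

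In the other 4 lists 4 of 57 genes passed between A20-KO and A20-OE (7.02%), beside 8.97% of all genes in either direction. None of the 5 prolyl isomerases and none of the 15 genes of N-glycan transfer and trimming passed, with the largest estimates at -0.47 for FKBP7 and -0.10 for PPIC, and at -0.53 for TUSC3 and -0.38 for MOGS. Among the 21 other ERAD genes 2 were lower and 1 higher, with the largest estimates at 0.58 for NGLY1 (adjusted p = 0.052) and 0.54 for HERPUD2 (adjusted p = 0.027). Among the 16 genes of translocation and signal peptidase, SEC11C, a catalytic subunit of the signal peptidase, was the 1 lower, at -0.73 ± 0.14 (adjusted p = 0.017), and SPCS2 came to -0.50 (adjusted p = 0.16).

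Of the 57 genes in these 4 lists 6 passed in A20-KO against WT (10.5%, beside 22.3% of all genes in either direction) and 17 in A20-OE against WT (29.8%, beside 31.1%). In A20-KO FKBP10 (0.74) and PPIC (0.59) were higher among the prolyl isomerases, TUSC3 was higher (1.14) and RPN1 lower among the genes of N-glycan transfer, SSR1 was lower (-0.49) of translocation, and UBE2G2 was the 1 other ERAD gene that passed, being lower. The largest estimates among those ERAD genes, TMUB1 at 0.49 and ERLEC1 at 0.38, did not pass. In A20-OE the oligosaccharyltransferase subunit RPN1 was lower (-0.69), as were the signal recognition particle receptor subunit SRPRB (-0.89) and the ERAD genes FOXRED2 (-0.82) and UFD1 (-0.67), all as log2 fold changes. Of the prolyl isomerases FKBP7 (-0.91) was lower and FKBP10 (0.72) higher than in WT, and SEC11C (-0.68) was lower.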

How the data were processed

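RNA-seq was measured in 9 libraries of HCT116 cells, 3 per group, and groups and replicate numbers were taken from the labels. The authors sequenced poly-A selected libraries as 150 bp read pairs, aligned them with HISAT2 2.0.5 and counted them per gene with featureCounts 1.5.0-p3 (versions per the labels), and deposited FPKM computed from gene length. The strand setting and genome build are not given in the sources used here. All gene identifiers of the table are in GENCODE 29 and all coordinates equal it, so coordinates are those of GRCh38. The authors ran DESeq2 on counts that were not used here.

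The main test was limma 3.58.1 in R 4.3.3, with a variance trend, on log2(FPKM + 0.1) over 21636 genes with a mean of at least 0.1 FPKM, the 3 groups in one fit, and Benjamini-Hochberg adjustment over all genes tested. All fold changes are on that scale, which understates changes of low genes. A gene passed at an adjusted p under 0.05, and past 2-fold also needed an absolute log2 fold change above 1. An exact permutation test of 3 libraries against 3 cannot give p below 0.1 and was not used. FPKM times gene length gave whole reads for 100% of values, within 0.05 reads, and limma-voom was run on them. The GC content correction subtracted the median deviation in 50 bins of GC content of the longest transcript from each library. The fits were tested on simulated data.

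The members and gene lists were chosen with earlier results of these data known. Values in every library are given for HSPA5, HSP90B1, XBP1, ERN1 and ATF6, for members past 2-fold in any comparison, and for up to 10 members of largest change among those that passed without overlap in A20-KO against WT and in A20-OE against A20-KO. The library values of FKBP2, HYOU1, UGGT1, CREB3L2 and ERP29 were added after they were seen. In other ER lists the 2 largest changes are named in each comparison, and any further gene there was named after its values were seen. Alternatives were other pseudocounts, filters and scaling, fits limited to 2 groups, the replicate number as a block, the GC content correction, limma-voom and each library left out. The correction without WT replicate 1 was added after the GC trend was seen.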

Additional observations from a re-analysis of the deposited data

How the results depend on the processing

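Whether equal replicate numbers mark paired libraries is not known. Deviations from the group means correlated at -0.03 to 0.12 (mean 0.04) between libraries of the same number. Between different numbers they correlated at -0.13 to 0.07 (mean -0.02). Over all genes tested, the replicate block gave 2759 higher and 2843 lower in A20-KO against WT, beside 2436 and 2380 without it. Numbers of members are given below as higher, lower and past 2-fold where they moved by over 1.5 times. Each is followed in parentheses by the share of all genes tested in that fit. With the replicate number as a block, A20-KO against WT came to 8 higher (12.8%) and 3 lower (13.1%). A20-OE against A20-KO came to 1 higher (5.69%) with that block. With the GC content correction the numbers were 9 (12.6%), 3 (13.6%) and 1 (5.63%) in A20-KO against WT. They were 1 (7.18%), 14 (8.52%) and 0 (2.63%) in A20-OE against A20-KO, and 6 higher (18%) in A20-OE against WT. With block and GC content correction together they were 12 (13.6%), 3 (15.3%) and 1 (5.68%), then 1 (8.29%), 17 (10.3%) and 0 (2.7%). A20-OE against WT came to 6 higher (18.9%) and 10 lower (20.5%) in that fit. The GC content correction with no WT replicate 1, an alternative added after seeing the data, gave 9 (10.5%) and 2 (11.7%) in A20-KO against WT. It gave 1 (7.7%), 16 (9.32%) and 0 (2.73%) in A20-OE against A20-KO, and 5 higher (16.3%) in A20-OE against WT. Only the 2 groups compared gave 3 higher (7.19%) and 0 lower (6.95%) in A20-KO against WT. A mean FPKM of at least 1 and limma-voom each gave 2 lower there (19.1% and 12.7%). No filter gave 1 higher in A20-OE against WT (8.6%). The cause was not tested.

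Leaving out each library gave the following numbers of members, with the range of the share of all genes in parentheses. In A20-KO against WT they were 2 to 7 higher (7.33% to 12.2%), 0 to 2 lower (7.04% to 10.8%) and 0 to 1 past 2-fold (5.48% to 8.16%). In A20-OE against A20-KO they were 0 to 12 lower (0.961% to 8.28%) and 0 to 2 past 2-fold (1.12% to 2.83%). In A20-OE against WT they were 0 to 3 higher (11.2% to 16.2%) and 0 to 1 past 2-fold (10.5% to 11.9%). Each such fit has fewer samples. Pseudocounts of 1 and 0.01 and median-of-ratios scaling moved no number by over 1.5 times. TNFAIP3 in A20-KO against WT lost its call in the fit on 2 groups (0.95) and without WT replicate 2, A20-KO replicate 1 or A20-KO replicate 2, at 0.75 to 1.25 over the leave-outs.

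With the GC content correction 12 of the 41 members changed sign in A20-KO against WT and 3 in each other comparison, none of which had passed without it. Those among the 15 members given library by library follow, and of these values only that of SDF2L1 passed with the correction. With the GC content correction, alone and with the block, HSPA5 in A20-OE against A20-KO was -0.003, XBP1 in A20-OE against WT 0.03, and in A20-KO against WT ATF6 was 0.10, SDF2L1 -0.36 and DNAJB11 0.23. Without WT replicate 1 as well, ATF6 was 0.12, SDF2L1 -0.37 and DNAJB11 0.16. Over the leave-outs the ranges that crossed 0 were, in A20-KO against WT, -0.02 to 0.09 for HSPA5, -0.25 to 0.02 for ERN1, -0.23 to 0.01 for ATF6, -0.14 to 0.29 for SDF2L1 and -0.10 to 0.01 for DNAJB11, in A20-OE against A20-KO -0.07 to 0.03 for HSP90B1 and -0.12 to 0.01 for OS9, and in A20-OE against WT -0.004 to 0.32 for MANF and -0.10 to 0.03 for PDIA4.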
